A study of Mus musculus with 4 samples.

Results

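The genes described here encode the subunits of the oxidative phosphorylation (OXPHOS) complexes that are made from nuclear DNA. They were chosen by gene symbol among the protein-coding genes outside the mitochondrial genome, with pseudogenes named -ps left out. The rule found 84 members among 54078 features, of which 22058 are protein-coding. By symbol, 37 belong to complex I, 4 to complex II, 9 to complex III, 18 to complex IV and 16 to complex V. Ndufa4 and Ndufa4l2 were counted with complex I by their symbols, although NDUFA4 is now regarded as a subunit of complex IV.

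Whole kidneys were sequenced as RNA 3 days after both had been clamped for 30 min (bI/R 3D). There were 4 libraries, 2 from WT mice (Apela flox/flox without Cre, littermates) and 2 from Apela Ksp KO mice, in which Cre under the Ksp-cadherin promoter removes Apela from renal tubular epithelial cells. All mice were adult males that carried the floxed Apela allele and underwent the same injury, each library was a pool of 3 mice, and no uninjured library was compared. The strain is labelled C57BL/6 x 129S4/SvJae, while the study's methods give C57BL/6, and the design text of the series gives adipose tissue as the source where title and labels give kidney.

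The mitochondrial inner membrane holds the OXPHOS complexes. Complexes I and II pass electrons from NADH and succinate to ubiquinone, complex III passes them on to cytochrome c, and complex IV passes them to oxygen, while complex V uses the proton gradient that results to make ATP. Tubular cells of the kidney, above all those of the proximal tubule and the thick ascending limb, are rich in mitochondria because active transport consumes much ATP, and their mitochondria are damaged early in ischemia.

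The reads on genes numbered 16045724 to 16927742 per library, and the members held 1.47% to 1.72% of them. The gene removed, Apela, showed an FPKM (fragments scaled by gene length and library total) of 5.27 and 4.57 in WT pools 1 and 2, and of 0.536 and 0.245 in KO pools 1 and 2. Markers of proximal tubule were abundant, with summed FPKM of 11900 and 6595 in the WT and 7760 and 11730 in the KO pools. Of 8 adipocyte genes, the defining markers Adipoq and Ucp1 were at an FPKM of 0 in every pool, other than 0.268 for Adipoq in KO pool 2, Plin1, which coats lipid droplets, was at 0.0535 and 0.0125 in the WT and 0.347 and 0.119 in the KO pools, and 6 of the list were under the filter of a mean FPKM of 0.5. The other two, both also used outside fat, had higher values in KO mice, with Pnpla2, a triglyceride lipase, at 63.3 and 40.8 in the WT and 112 and 77.9 in the KO pools, and Cidec, a lipid droplet protein, at 1.37 and 0.282 against 7.92 and 2.79. The adipocyte list summed to 64.7 and 41.1 in the WT and 120 and 81.1 in the KO pools, and the striated muscle list to at most 1.57. WT pool 2 stood apart from WT pool 1, with 10 of 10 macrophage genes and 6 of 6 fibroblast genes higher, and its effect on the comparison of the genotypes is given with the results below.

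Sequence near the start of transcription was read from the RefSeq promoter table of GRCm38.p6, in which 66 of the 84 members were found, each with 250 bases before and 50 bases after its RefSeq start, which can differ from the end of the gene in the deposited table. Exact words for factors known to act on OXPHOS genes were searched on both strands. The NRF1 word GCGCATGC was in 10 members (15.2%), against 2.71% of all 32851 promoters in the table and 5.65% of the other tested protein-coding genes. The YY1 word AAGATGGC was in 9 members (13.6%), against 2.75% and 5.07%, and the ERR word TCAAGGTCA in 2 (3.03%), against 0.423% and 0.324%. The GABPA (ETS) word CCGGAAGT was in 5 (7.58%), against 3.89% of all promoters and 8.88% of the other tested genes, and the SP1 word GGGGCGGGG in 10 (15.2%), against 11.4% and 24.7%. These shares describe letters in a window and not binding, and NRF1, YY1 and ERR words were more frequent in the members than in either background, while SP1 words were less frequent than among the other tested genes. At least 1 word was in 30 members (45.5%), against 38.9% of the other tested protein-coding genes.

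Stretches just before the RefSeq start are shown for 5 members, 1 or more from each of complexes II to V, as examples of these words. The stretch of Sdhb is chr4:140961121-140961270 (plus strand), of Uqcr11 chr10:80406822-80406921 (minus), of Cox6a1 chr5:115348959-115349138 (minus), of Atp5g2 chr15:102671048-102671127 (minus) and of Atp5g3 chr2:73911327-73911406 (minus). Capitals mark whole words within the stretch, on either strand: SP1 then NRF1 in Sdhb, GABPA (ETS) in Uqcr11, a pair of overlapping NRF1 words on opposite strands in Cox6a1 and in Atp5g2, and ERR in Atp5g3.
Sdhb: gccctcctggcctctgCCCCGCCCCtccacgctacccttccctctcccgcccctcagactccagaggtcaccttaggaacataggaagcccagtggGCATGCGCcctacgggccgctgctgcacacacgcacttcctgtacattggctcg
Uqcr11: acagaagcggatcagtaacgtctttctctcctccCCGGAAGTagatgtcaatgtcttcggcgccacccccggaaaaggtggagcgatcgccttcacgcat
Cox6a1: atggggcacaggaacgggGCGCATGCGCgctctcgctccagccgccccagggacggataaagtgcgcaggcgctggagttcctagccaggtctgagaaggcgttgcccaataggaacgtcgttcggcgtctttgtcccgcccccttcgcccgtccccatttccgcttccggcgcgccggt
Atp5g2: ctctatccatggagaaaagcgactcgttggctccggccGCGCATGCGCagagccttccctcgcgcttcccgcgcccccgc
Atp5g3: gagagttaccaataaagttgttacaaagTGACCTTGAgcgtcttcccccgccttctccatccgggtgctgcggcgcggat

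The YY1 word had a shared position in the members. In 8 of its 9 matches it lay on the sense strand after the start, with its first base between bases 23 and 39 of the transcript, whereas 284 of 927 matches (30.6%) over all promoters lay on the sense strand after the start. In all 8 the ATG inside the word is the annotated start codon, which was not looked up for the matches in other genes. The windows are at chr5:145191501-145191528 for Atp5j2, chr7:3617385-3617412 for Ndufa3, chr6:126849098-126849125 for Ndufa9, chr19:44555393-44555414 for Ndufb8, chr3:51408916-51408943 for Ndufc1, chr13:114388045-114388069 for Ndufs4, chr13:73328433-73328459 for Ndufs6 and chr10:80249463-80249490 for Ndufs7. Complex I subunits are encoded by 7 of these 8 genes, and by 32 of the 66 members found in the promoter table. The windows are printed with the word in capitals and up to 10 bases on either side.
Atp5j2: ccaggacttcAAGATGGCgtcactcggt
Ndufa3: cgccaagaacAAGATGGCcgggagtaag
Ndufa9: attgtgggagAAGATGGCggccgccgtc
Ndufb8: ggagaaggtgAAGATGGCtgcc
Ndufc1: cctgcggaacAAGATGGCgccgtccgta
Ndufs4: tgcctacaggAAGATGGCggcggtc
Ndufs6: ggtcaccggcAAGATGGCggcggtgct
Ndufs7: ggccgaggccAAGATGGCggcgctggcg

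The subunit genes were abundant. Of the 84, 38 had a mean FPKM over 100 and 11 a mean under 15, and their median among the 79 tested was 96.3, against 5.24 over all tested genes. By FPKM the highest member was Cox8a (mean 843), a small subunit of complex IV. The highest of the other complexes were Atp5b (557), Uqcr10 (423), Ndufa2 (230) and Sdhd (208). This order depends on the deposited gene length, which joins the exons of all transcripts. It was 545 bases for Cox8a and 4237 for Atp5b, whose longest coding transcripts have 550 and 1916 bases. Atp5b had more reads, 35971 to 42460 per pool against 6620 to 8050. Summed over all members, FPKM was 11070 and 8562 in WT pools 1 and 2 and 10250 and 11174 in KO pools 1 and 2. WT pool 2 was the lowest and the other 3 pools lay close together. The sum was 9816 ± 1774 (SD, n = 2 pools) in WT and 10712 ± 653 in KO mice, a ratio of 1.09, which is within the spread of the WT pools.

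**Figure D1:**
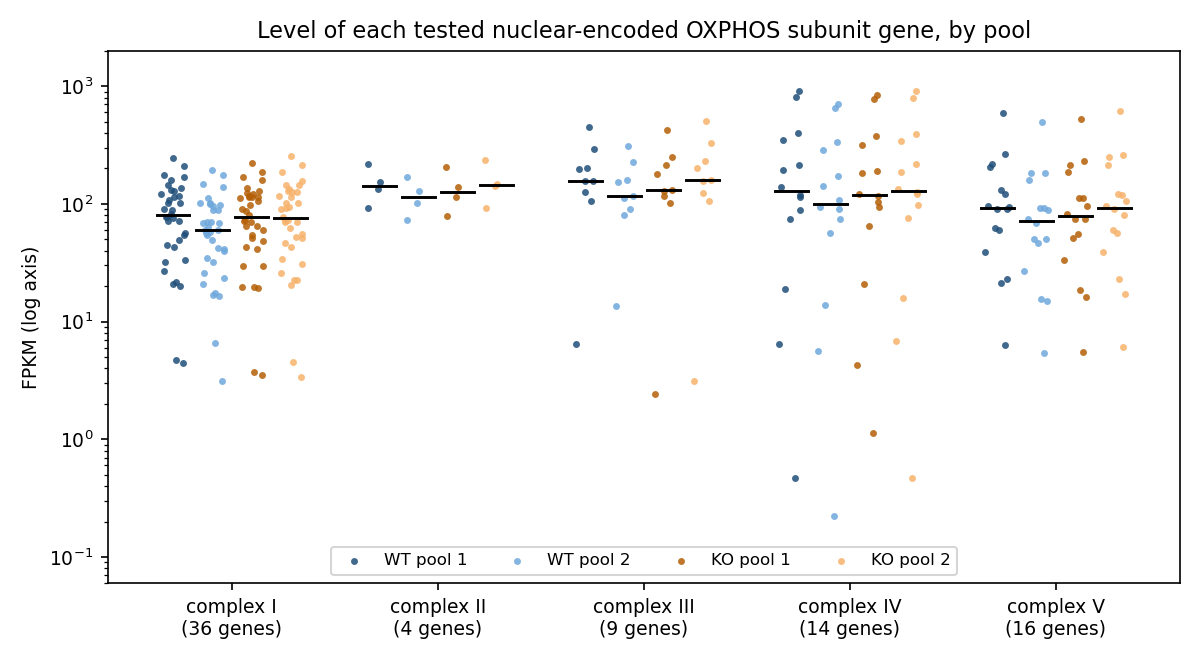
FPKM (log axis) of each of the 79 tested subunit genes (points) in the 4 pools, by complex, with the median of each pool as a black bar. Most genes lie above 15 FPKM in every pool, and the median of WT pool 2 is the lowest within each complex.

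The share that each complex took of the members' summed FPKM hardly moved between the pools. Complex I held 29.0% and 28.5% in WT pools 1 and 2 and 29.7% and 28.3% in KO pools 1 and 2. Complex IV held 31.1% and 32% against 31.4% and 30.6%, complex V between 18.4% and 19.3%, complex III between 14.8% and 16.2% and complex II between 5.26% and 5.56%. The low level in WT pool 2 was therefore spread over all 5 complexes, whose sums were 20.5% (complex IV) to 25.4% (complex III) below those of WT pool 1.

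Gene by gene, the members moved together. WT pool 2 was below WT pool 1 in 77 of 79 tested members, against 50.7% of all tested genes and 59.5% of tested genes averaging 15 FPKM or more, and it was the lowest of the 4 pools in 74. The median difference between the WT pools was -0.37 on the log2 scale, a ratio of 0.774, with the quartiles of the members at -0.44 and -0.29. Between the KO pools, pool 2 was higher by a median of 0.14. These differences are between pools of 1 genotype and got no test.

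Other gene lists showed where WT pool 2 differed from WT pool 1. The 10 proximal tubule genes were all lower in it, as were 7 of 8 genes of thick ascending limb and distal tubule, whose summed FPKM was 1410 and 986.5 in WT pools 1 and 2 and 1404 and 1182 in KO pools 1 and 2, most of it from Umod, encoding uromodulin (1080, 788, 1133 and 858 in the same order). WT pool 2 was not the lowest pool for most of these genes. KO pool 1 was the lowest in 6 of the 10 proximal tubule genes and in 5 of the 8 of thick ascending limb and distal tubule, and WT pool 2 in the other 4 and 3. The 7 tested collecting duct genes were all lower in WT pool 2 than in WT pool 1. Macrophage genes summed to 185.8 and 462.5 in the WT and 228.2 and 219.2 in the KO pools, with Lyz2, encoding lysozyme, at an FPKM of 57.5, 164, 89.2 and 104 in the same order. Fibroblast genes summed to 123.6 and 250.4 in the WT and 143.6 and 161.3 in the KO pools. The part of these cell types in the subunit levels was not tested, and in whole kidney RNA fewer tubular cells and less RNA per cell cannot be told apart.

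**Figure D2:**
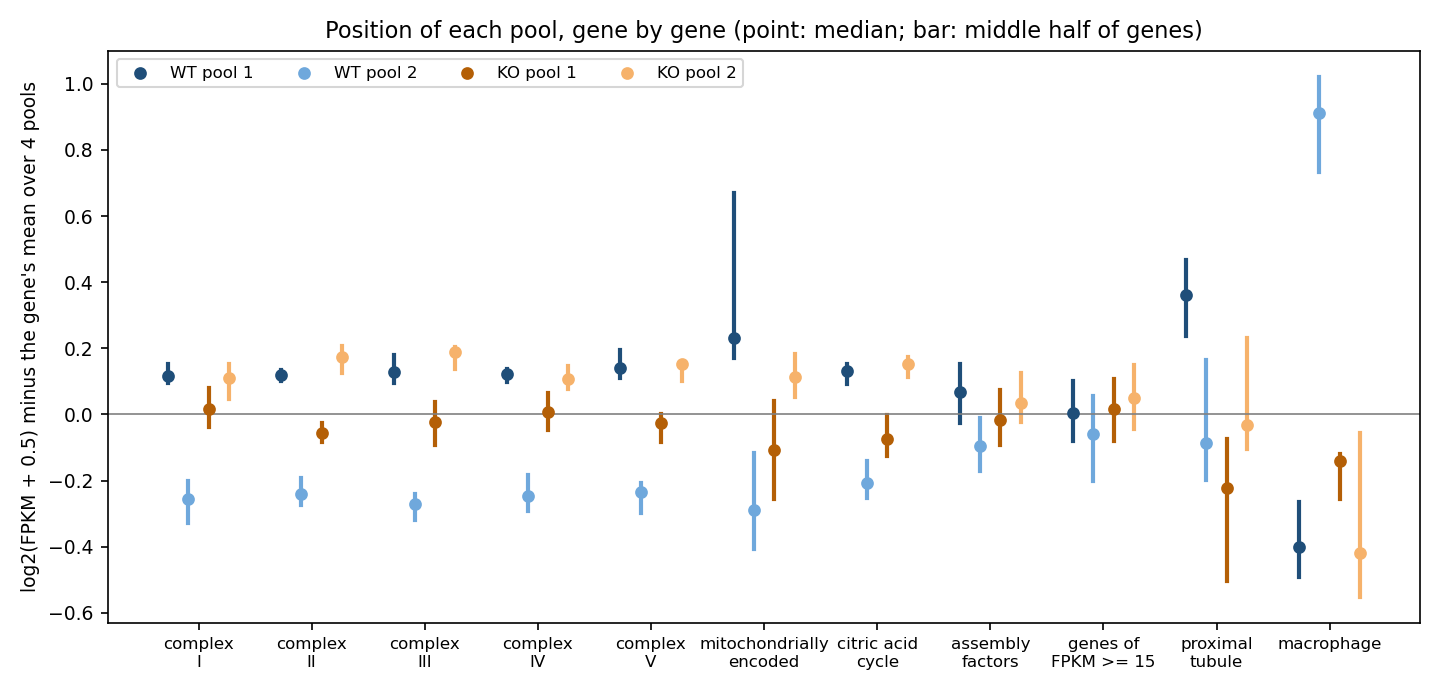
Position of each pool: log2(FPKM + 0.5) minus the same gene's mean over the 4 pools, as the median (point) and the span between quartiles (bar) of the genes of each list. In all 5 complexes WT pool 2 sits near -0.25 and the other pools between -0.06 and 0.19, while the macrophage genes place WT pool 2 at 0.91.

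The comparison of Apela Ksp KO with WT mice asked whether the loss of tubular Apela was accompanied by other subunit mRNA levels in the injured kidney. No member passed the threshold. With limma on log2(FPKM + 0.5) and Benjamini-Hochberg adjustment over 15414 genes, 0 genes had an adjusted p under 0.05 (0% called), and the smallest adjusted p was 0.708 among members and 0.466 over all genes. With limma's voom weights on recovered reads the count was also 0. The paper, by its own test, reports many genes past the same adjusted threshold for these genotypes. At an unadjusted p under 0.05, 0 members were higher in KO mice, against 3.29% of all tested genes, and 1 member, Uqcrc1, was lower, against 3.03%. Without WT pool 1, 7 members were higher at this threshold, against 6.22% of all tested genes, and 2, Uqcrc1 and Ndufa4l2, were lower, against 4.94%. Together these are 11.4% of the members and 11.2% of all tested genes. Of the 79 tested members, 70 had a higher fitted value in KO mice. The same held for 7917 of all 15414 tested genes and for 2299 of the 3581 averaging 15 FPKM or more. The members' median log2 fold change was 0.12, with quartiles of 0.070 and 0.18. The median was 0.0071 over all tested genes and 0.065 over tested genes averaging 15 FPKM or more. With quantile normalization 49 of 79 members were higher, with a median of 0.022, and with FPKM rescaled over nuclear genes also 49, with a median of 0.020 against -0.093 over all tested genes. Fold changes on this scale understate those of low genes.

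Marker genes of cell types and of injury moved beside these values. In KO mice 8 of 10 proximal tubule genes were lower (median log2 fold change -0.26, and between -0.42 without WT pool 2 and -0.035 without WT pool 1), 8 of 10 macrophage genes were lower (-0.59, and between -1.22 without WT pool 1 and 0.047 without WT pool 2) and 8 of 8 endothelial genes were higher (0.32, and between 0.16 without KO pool 2 and 0.52 without KO pool 1), with summed endothelial FPKM of 160.3 and 181.0 in the WT and 230.2 and 239.5 in the KO pools. Among the injured tubule genes, 6 were higher and 4 lower. Lcn2, which encodes the injury marker NGAL, had an FPKM of 133 and 95.2 in the WT and 249 and 273 in the KO pools, Krt20 had 35.6 and 36.8 against 60.0 and 61.0, and Cdkn1a, a cell cycle inhibitor, 25.8 and 24.9 against 59.0 and 45.7. In the other direction, Vcam1, an adhesion molecule, had 14.6 and 31.1 in the WT and 10.5 and 2.59 in the KO pools, and Havcr1, which encodes the injury marker KIM-1, 210 and 393 against 249 and 105. No gene of these lists passed the adjusted threshold, and the part of these markers in the subunit values was not tested.

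The direction of this median depended on WT pool 2, and its size also on the scaling. Without that pool the median log2 fold change of the members was -0.070 and 63 of 79 were lower in KO mice, and without WT pool 1 it was 0.31 and 76 were higher. With all pools the medians by complex were 0.13 (I), 0.10 (II), 0.11 (III), 0.12 (IV) and 0.11 (V), and without WT pool 2 they lay between -0.11 (V) and -0.056 (III). The median of complex II was also -0.015 without KO pool 2. With quantile normalization the medians were 0.037 (I), -0.015 (II), -0.0045 (III), 0.027 (IV) and 0.0033 (V), and with the nuclear rescaling they lay between -0.0034 (II) and 0.022 (I). KO pools lay entirely above WT pools in 5 of 79 tested members (6.33%), against 19.7% of all tested genes, and both below in 2 (2.53%), against 18.1%. The 95% interval of a member's log2 fold change reached 0.51 to either side at the median, before any adjustment for the number of genes, and Uqcrc1 was not called at -1.59.

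**Figure D3:**
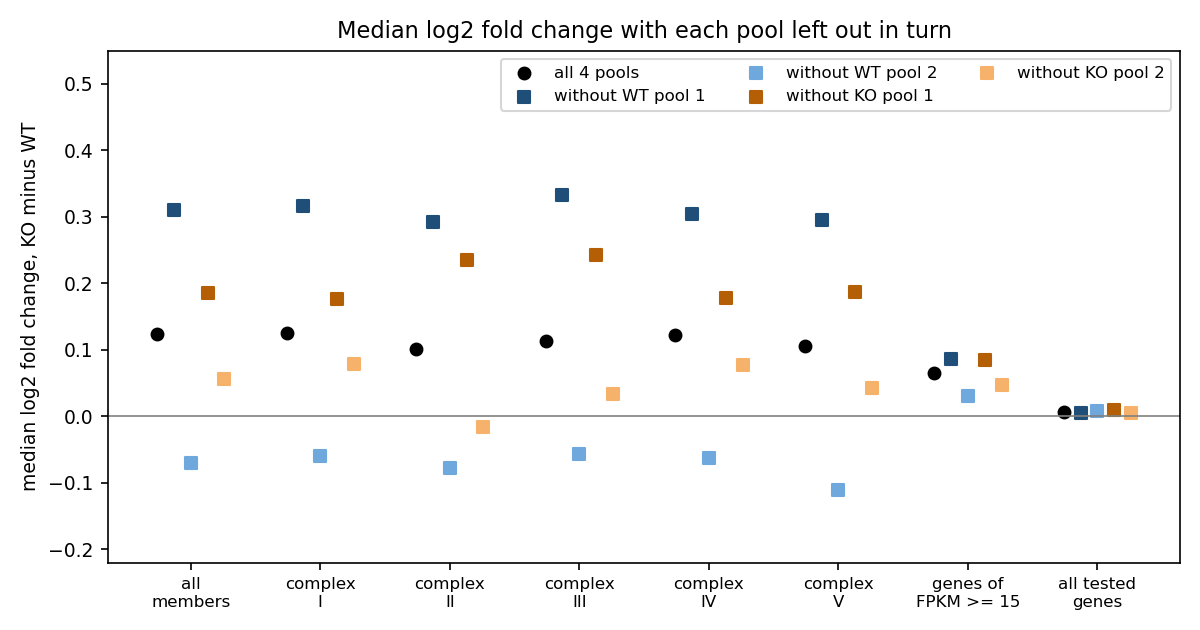
Median log2 fold change (KO minus WT) of the members, of each complex and of other tested genes, with all 4 pools (black circles) and with each pool left out (squares). The squares for the members run from -0.070 without WT pool 2 to 0.31 without WT pool 1, while those for all tested genes stay between 0.0051 and 0.00999.

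Complex I takes electrons from NADH. Ndufv1, the subunit that binds NADH and FMN, had an FPKM of 116 and 89.2 in WT pools 1 and 2 and of 114 and 126 in KO pools 1 and 2. Ndufs1, the largest iron-sulfur subunit, had 26.9 and 20.8 in the WT and 19.6 and 26.1 in the KO pools. For both the WT and KO pools overlapped, and the log2 fold changes were 0.23 (Ndufv1) and -0.060 (Ndufs1), with ranges of 0.039 to 0.42 and -0.26 to 0.14 when 1 pool was left out. The FPKM of Ndufs1 is set by a gene length of 8086 bases, the longest of any tested member, since the deposited length joins the exons of all transcripts.

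Ndufs7, an iron-sulfur subunit of the core and one of the genes with a YY1 word at its start codon, was the 1 complex I gene with both KO pools above the WT pools. It lies on chromosome 10 of GRCm38 from 80249121 to 80256794 (plus strand). It was present at an FPKM of 89.1 and 70.6 in the WT and 98.5 and 94.6 in the KO pools, which limma put at 0.28 ± 0.16 (SE) on the log2 scale with a Benjamini-Hochberg adjusted p of 0.798. It lay between 0.11 and 0.45 when 1 pool was left out. Ndufa2, the highest of complex I by FPKM, had 247 and 193 against 222 and 256. In 33 of 36 tested complex I genes WT pool 2 was the lowest.

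Ndufa12, an accessory subunit, was picked out after its values were seen. It lies on chromosome 10 from 94198955 to 94221443 (plus strand). It showed an FPKM of 20.9 and 16.7 in WT pools 1 and 2 and 54.6 and 20.6 in KO pools 1 and 2, so that KO pool 1 alone was high and KO pool 2 lay within the WT range. The processed pseudogene Gm15920 holds 26.2% of the 50-base windows of the Ndufa12 transcript, and its FPKM was 115 and 74.0 in the WT and 39.1 and 87.0 in the KO pools, lowest in KO pool 1. Reads of both genes summed to 1193 and 896 in the WT and 1481 and 1015 in the KO pools. How reads were divided between them was not tested.

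Ndufs3, another core subunit on chromosome 2 (90894634 to 90904827, minus strand), was listed at 0 in all 4 pools. Of the genes around it, Mtch2, beyond C1qtnf4, had 863 and 909 reads in the WT and 901 and 936 in the KO pools. The neighbours C1qtnf4, Kbtbd4 and Celf1 were also listed at 0, although Celf1, an RNA-binding protein, is broadly used by cells. A feature of 933 bases that was assembled from the reads on a patch scaffold, from 90894627 to 90904705 on the minus strand, carries the domain of this subunit family. It had an FPKM of 35.9 and 2.31 in WT pools 1 and 2 and of 3.59 and 3.89 in KO pools 1 and 2, with 538, 37, 56 and 59 reads. Only WT pool 1 was high. The 0 of Ndufs3 was therefore read as a listing and not as a level.

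Complex II oxidises succinate and is the only one without a mitochondrially encoded subunit. Sdha, the flavoprotein that holds the active site, had an FPKM of 153 and 129 in the WT and 139 and 148 in the KO pools, and Sdhb, the iron-sulfur subunit whose promoter is shown above, 134 and 100.9 against 115 and 142. The membrane anchors Sdhc and Sdhd had 93.2 and 72.5 against 79.3 and 93.1, and 219 and 169 against 206 and 238. WT pool 2 was the lowest for all 4 genes, and the groups overlapped for each. The log2 fold changes lay between 0.028 (Sdha) and 0.20 (Sdhd), with limma's Benjamini-Hochberg adjusted p-values of at least 0.866. When 1 pool was left out, only that of Sdhd stayed above 0, from 0.016 to 0.39, and the others had both signs.

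Complex III hands electrons to cytochrome c. Cyc1, the cytochrome c1 subunit (chromosome 15, 76343523 to 76346260, plus strand), had an FPKM of 201 and 160 in the WT and 216 and 231 in the KO pools. This placed both KO pools on top of both WT pools, with a difference that limma put at 0.31 ± 0.18 (SE) on the log2 scale with a Benjamini-Hochberg adjusted p of 0.798. When 1 pool was left out it lay between 0.15 and 0.48. Uqcrfs1, the Rieske iron-sulfur protein, had 290 and 225 in the WT and 252 and 329 in the KO pools, and Uqcr10, the highest by FPKM, 453 and 309 against 427 and 503. Both had overlapping groups with WT pool 2 lowest.

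Uqcrc1, a core subunit of complex III, was the 1 member with an unadjusted p under 0.05. It lies on chromosome 9 from 108936633 to 108949623 (plus strand). It had an FPKM of 6.41 and 13.5 in WT pools 1 and 2 and 2.44 and 3.11 in KO pools 1 and 2, from 426, 957, 169 and 209 reads. Both KO pools were below both WT pools, and WT pool 2, the lowest for most members, was here the highest. The difference by limma was -1.59 ± 0.36 (SE) on the log2 scale, with an unadjusted p of 0.00868 and a Benjamini-Hochberg adjusted p of 0.708. It lay between -2.10 and -1.08 under the other settings, with adjusted p-values of 0.298 to 0.992.

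The level of Uqcrc1 was far below that of its partner core subunit Uqcrc2, which had an FPKM of 106 and 90.8 in the WT and 102 and 106 in the KO pools. None of the 50-base windows of the Uqcrc1 transcript (0%) occurs in another gene, and 24.8% of those of Uqcrc2 do. Upstream of Uqcrc1, Slc26a6, an anion exchanger of the proximal tubule brush border, was listed with 0, 1, 0 and 0 reads, and Tmem89 between the genes with 0 in every pool, while Pfkfb4 downstream had 186 to 225 reads. Genes with few or no reads thus lay beside Uqcrc1 as they did beside Ndufs3, and whether this touches the difference between the genotypes was not tested.

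Complex IV reduces oxygen. Cox4i1, the main form of a regulatory subunit, had an FPKM of 403 and 337 in the WT and 375 and 390 in the KO pools. Cox5a (chromosome 9, 57521274 to 57532426, plus strand) had 89.5 and 74.3 against 93.4 and 97.0, both KO pools lying above the WT pools. The difference by limma was 0.22 ± 0.15 (SE) on the log2 scale, with a Benjamini-Hochberg adjusted p of 0.823, and it lay between 0.088 and 0.35 when 1 pool was left out. Cox7a2l, which takes part in joining complexes III and IV and was picked out after its values were seen, had 113 and 107 against 118 and 122, with a log2 fold change of 0.12, and from 0.078 to 0.16 when 1 pool was left out. The small subunits Cox8a and Cox6a1 had 913 and 706 against 842 and 910, and 810 and 653 against 782 and 799, both overlapping and both with WT pool 2 lowest.

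Several complex IV subunits have a second gene with a muscle, lung or testis form. Where both genes of a pair had reads, this second form held a small share of the pair's FPKM in every pool. Cox4i2, the form inducible by hypoxia, held between 0.0656% and 0.303% of the FPKM of the Cox4i pair, from 3 to 15 reads per pool. Cox6a2, the form of heart and muscle, held at most 0.0565% and was under the filter of a mean FPKM of 0.5. Cox7a1 held 2.18% to 3.15% against Cox7a2, and Cox6b2, the testis form, 4.46% to 6.18% against Cox6b1, although its own FPKM was 18.9 and 13.9 in the WT and 21.04 and 15.95 in the KO pools. Cox8b, Cox8c and Cox7b2 were listed at 0 in all 4 pools, and whether this is a level or only a listing was not tested. In each pair with reads for both genes the same gene was the main form in all 4 pools.

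Ndufa4l2, a paralog of Ndufa4 that is induced by hypoxia-inducible factor, had an FPKM of 4.72 and 6.64 in WT pools 1 and 2 and of 3.77 and 4.56 in KO pools 1 and 2. Both KO pools were below both WT pools, from 69 to 125 reads. The difference by limma was -0.39 ± 0.20 (SE) on the log2 scale, with a Benjamini-Hochberg adjusted p of 0.798, and lay between -0.62 without WT pool 1 and -0.17 without WT pool 2. Ndufa4 itself had 211 and 176 in the WT and 188 and 213 in the KO pools, so the paralog held 2.18%, 3.63%, 1.97% and 2.09% of the pair in the same order. WT pool 2 was the high pool for this share.

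**Figure D4:**
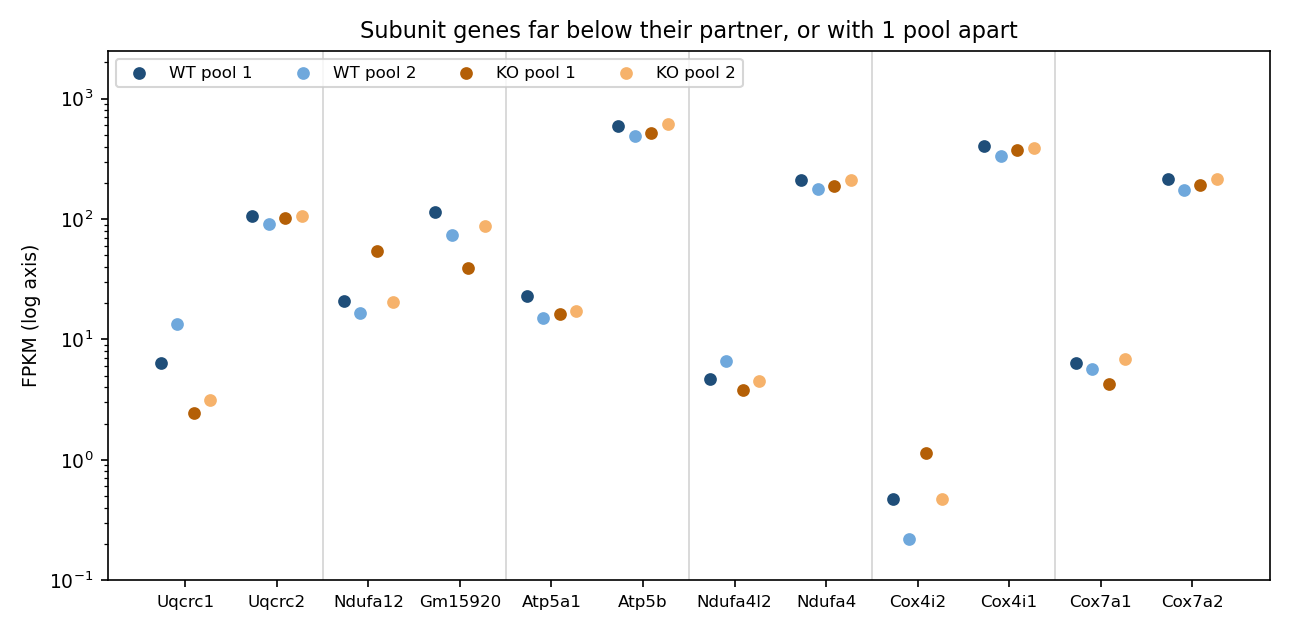
FPKM (log axis) in the 4 pools (points) of 6 pairs: Uqcrc1 with Uqcrc2, Ndufa12 with the pseudogene Gm15920, Atp5a1 with Atp5b, and 3 isoform pairs. Uqcrc1 is near 10 in WT and near 3 in KO pools while Uqcrc2 stays near 100, and Ndufa12 is high in KO pool 1 only, where Gm15920 is low.

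Complex V makes ATP. Atp5b, the catalytic beta subunit, had an FPKM of 596 and 494 in the WT and 522 and 617 in the KO pools. Atp5a1, the alpha subunit, which stands in equal number with beta in the enzyme, had 23.2 and 14.96 against 16.2 and 17.2. The mRNA level listed for Atp5a1 was thus far below that of Atp5b in every pool, and its neighbour Haus1 had 65 reads in WT pool 1 and 5 or 6 in each of the others. Pstpip2, on the other side of Atp5a1, had 50 and 49 reads in the WT and 26 and 28 in the KO pools. For both subunits the groups overlapped, with log2 fold changes of 0.067 (Atp5b) and -0.15 (Atp5a1), with ranges of -0.069 to 0.20 and -0.46 to 0.15 when 1 pool was left out.

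The c ring of complex V is encoded by Atp5g1, Atp5g2 and Atp5g3, whose mature proteins are alike. Their FPKM summed to 398.7 and 298.5 in the WT and 361.8 and 404.2 in the KO pools. Atp5g2 (chromosome 15, 102662864 to 102672352, minus strand), with overlapping NRF1 words before its RefSeq start, which lies inside these coordinates, had 93.4 and 89.4 in the WT and 96.2 and 106 in the KO pools, both KO pools above both WT pools. The difference by limma was 0.14 ± 0.13 (SE) on the log2 scale, with a Benjamini-Hochberg adjusted p of 0.854, and it lay between 0.0734 (without KO pool 2) and 0.215 (without KO pool 1) with 1 pool left out. Of the 3 genes it had the smallest gap between the WT pools. Atp5g3, with the ERR word, had 266 and 182 against 232 and 259, and Atp5g1 had 39.2 and 26.7 against 33.7 and 39.0. In all 16 complex V genes WT pool 2 was the lowest.

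**Figure D5:**
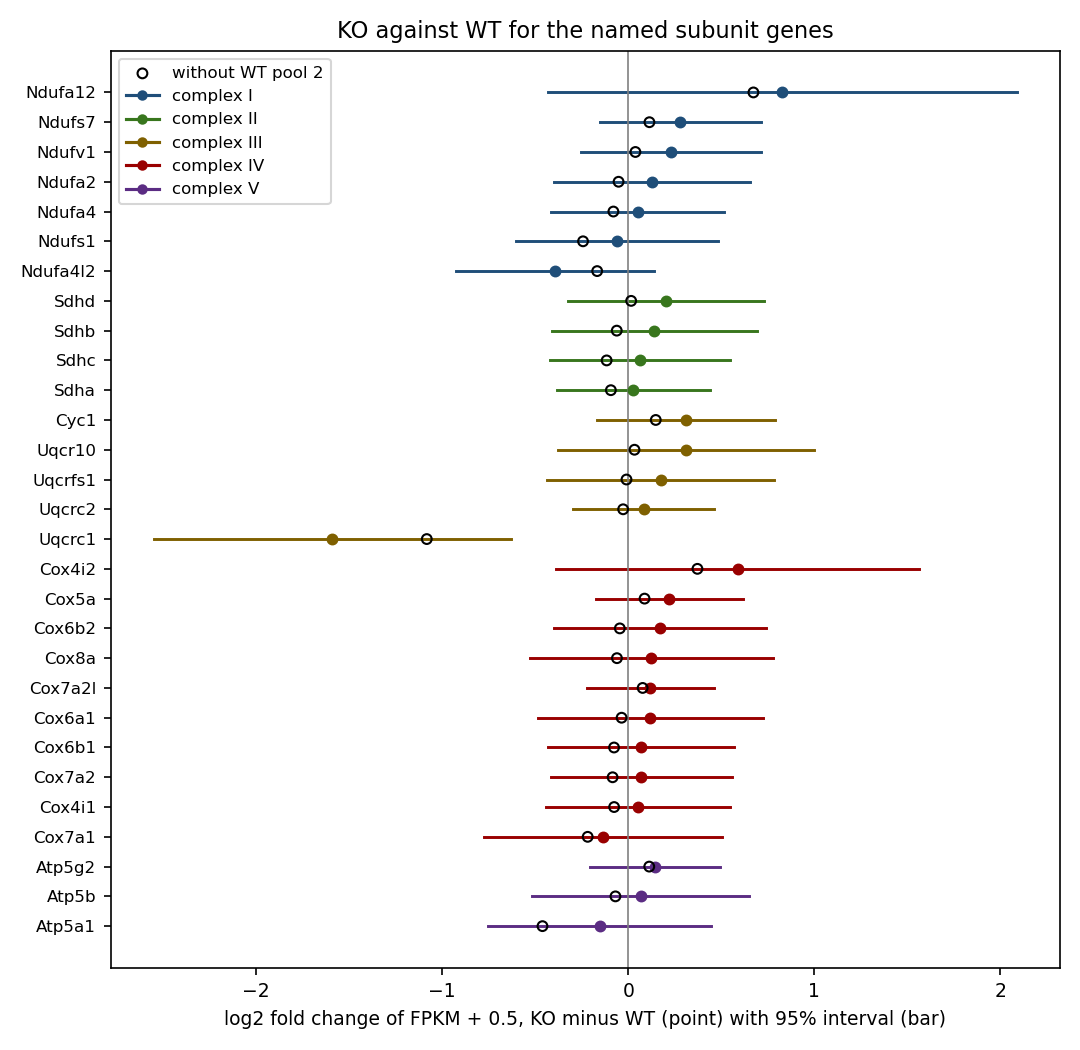
Log2 fold change of FPKM + 0.5 (KO minus WT, filled points) with its 95% interval (bars) for the named subunit genes, coloured by complex, and the value without WT pool 2 (open circles). All intervals other than that of Uqcrc1 hold 0, and most open circles lie to the left of the filled points.

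Some members share sequence or exons with other genes, which limits their levels. Of the 84, 39 had no 50-base window in common with another gene, and the median share was 0.744%. Atp5l shared 84.8% of its windows, with 14 other genes that include the processed pseudogene Gm10221, and Atp5o 50.3%. Exons overlapped those of another gene in 29 members, up to 47.9% in Atp5o, 39.0% in Ndufb6 with Smim27 and 30.0% in Ndufa13 with Tssk6, and since no source used here says whether counting used strand, reads of such pairs cannot be told apart. Of the 79 tested members, 73 had at least 300 reads in every pool.

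The genes that work beside the subunits were read from the same fit, and none passed the threshold. The 13 mitochondrially encoded subunits had summed FPKM between 38640 in WT pool 2 and 52890 in WT pool 1. This was 4.78 and 4.51 times the nuclear-encoded sum in the WT and 4.47 and 4.58 times in the KO pools. Listed levels were uneven within this sum. The FPKM of mt-Co1 was 14590 and 10970 in the WT and 14330 and 15420 in the KO pools. That of mt-Co3 was 322.8 and 85.78 against 187.2 and 82.95, and why was not tested. Of 18 citric acid cycle genes, 13 were higher and 5 lower in KO mice (median log2 fold change 0.096, and from -0.070 without WT pool 2 to 0.26 without WT pool 1), and all 18 were lower in WT pool 2 than in WT pool 1. Of 44 tested assembly factors, 26 were higher and 18 lower (median 0.025, and from -0.069 to 0.079 without the same pools), with 34 lower in WT pool 2. Of 22 tested electron carriers, ubiquinone enzymes and ADP/ATP carriers, 19 were higher and 3 lower (median 0.19, and from 0.047 to 0.32 likewise), and Slc25a5, an ADP/ATP carrier, had an FPKM of 655 and 411 in the WT and 667 and 778 in the KO pools.

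Regulators of OXPHOS gene transcription showed no common direction. Of 18, 7 were higher and 11 lower in KO mice, with a median log2 fold change of -0.017. Two-sided unadjusted p-values under 0.05 were found for Ppara, a fatty acid sensing nuclear receptor, and for Ppargc1b, a coactivator, 2 of 18 genes and both higher, against 3.29% of all tested genes that were higher and 3.03% that were lower at this threshold. Ppara had an FPKM of 19.0 and 14.8 in the WT and 31.95 and 29.1 in the KO pools (log2 fold change 0.84, unadjusted p = 0.00433), and Ppargc1b had 1.86 and 1.94 against 2.94 and 3.07 (0.55, unadjusted p = 0.0110). For each, neither KO pool overlapped the WT pools, and the smallest adjusted p of the list was 0.65 by limma after Benjamini-Hochberg adjustment. Of the factors whose words were searched in the promoters, those of the list had overlapping groups other than Esrrb, with Nrf1 at 2.34 and 3.03 in the WT and 2.38 and 2.34 in the KO pools, Gabpa at 8.71 and 8.21 against 8.19 and 8.37, Yy1 at 17.3 and 17.6 against 17.3 and 17.0, Esrra at 63.0 and 52.1 against 46.2 and 54.7, and Esrrg at 10.5 and 8.998 against 9.29 and 8.29. Esrrb, an ERR factor as are the last 2, had 4.29 and 2.97 in the WT and 4.72 and 5.37 in the KO pools (log2 fold change 0.44, unadjusted p = 0.0815 by limma, and 0.21 without WT pool 2 to 0.67 without WT pool 1), and the gene for SP1 was not in the list.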

How the data were processed

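A column of FPKM for each library was deposited by the authors, beside gene positions and lengths. Per the labels, mRNA was selected with poly-T beads, and the submitters' processing notes name HISAT2 2.0.5 and the builds mm10 and GRCm38.p6. The counting tool is not given in the sources used here. Gene coordinates were identical to GENCODE M21 for 97.1% of 53620 shared genes. Exon overlaps and shared windows were computed on M21, whose joined exon length equalled the deposited length in 72 of the 84 members. FPKM times the deposited gene length gave whole reads for 100% of nonzero values (tolerance 0.01 of a read), used for depth and voom weights. Genes averaging 0.5 FPKM or more were tested on log2(FPKM + 0.5) by limma 3.58.1 (R 4.3.3, mean-variance trend, no covariates, two-sided) and Benjamini-Hochberg adjustment. The study's threshold of an adjusted p under 0.05 was kept, but its own test was not rerun. With that test the paper reports many genes as altered, whereas the fit used here called none. The reason for this difference was not tested. The smallest exact permutation p for 2 pools against 2 is 0.333. Replicate pools differed by more than sampling noise (median chi-square per gene 3.52 between WT and 2.78 between KO pools), and p-values measure the spread between pools only. The members, gene lists and tests were chosen with earlier results of these data known. Named genes were subunits with fixed roles, tissue isoforms, the largest non-overlapping difference in each direction and the member with the highest mean FPKM per complex. A gene that this rule names is not reported here. The main fit was run on simulated reads with known changes and a common spread setting for all genes. This checked the fitted fold changes and not the p-values. Other computations used Python 3.11.15, numpy 2.4.6 and pandas 2.3.3.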

Additional observations from a re-analysis of the deposited data

How the results depend on the processing

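With 2 pools a group, the direction of the members' median changed with WT pool 2, that of complex II also with KO pool 2 and with the scaling, and that of complex III with quantile normalization. Leaving out each pool in turn, the median log2 fold change ranged from -0.0696 to 0.311 over all members, from -0.0587 to 0.316 in complex I, from -0.0775 to 0.292 in complex II, from -0.0559 to 0.333 in complex III, from -0.063 to 0.304 in complex IV and from -0.111 to 0.296 in complex V. Over all tested genes 0 passed an adjusted p under 0.05 in the fit with all pools, and 974 had an unadjusted p under 0.05, of which 1 was a member. Without WT pool 1 these were 1720 genes (11.2%) and 9 members (11.4% of those tested), and without WT pool 2 they were 687 genes and 2 members, without KO pool 1 they were 727 and 1, and without KO pool 2 they were 779 and 2, with 0 past the adjusted threshold each time. Under quantile normalization the members' median was 0.022, and with FPKM rescaled over nuclear genes it was 0.020 while the median of all genes moved from 0.0071 to -0.093; 49 of 79 members were then higher in KO mice in either case.

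Fits without 1 pool assume that the lone pool varies like the other group. In them the log2 fold change of 16 named genes changed sign, with ranges of -0.461 to 0.153 (Atp5a1), -0.0688 to 0.202 (Atp5b), -0.0759 to 0.181 (Cox4i1), -0.0356 to 0.274 (Cox6a1), -0.0763 to 0.216 (Cox6b1), -0.0452 to 0.386 (Cox6b2), -0.456 to 0.186 (Cox7a1), -0.084 to 0.223 (Cox7a2), -0.0607 to 0.309 (Cox8a), -0.0519 to 0.304 (Ndufa2), -0.0798 to 0.183 (Ndufa4), -0.261 to 0.141 (Ndufs1), -0.0933 to 0.149 (Sdha), -0.0617 to 0.341 (Sdhb), -0.116 to 0.243 (Sdhc) and -0.0185 to 0.366 (Uqcrfs1). Quantile normalization turned Atp5b to -0.0239, Cox4i1 to -0.0687, Cox6b1 to -0.00727, Cox7a2 to -0.0776, Ndufa2 to -0.0454, Ndufa4 to -0.106, Sdha to -0.0963 and Sdhc to -0.0509. The nuclear rescaling turned Atp5b to -0.0388, Cox4i1 to -0.053, Cox6b1 to -0.0355, Cox7a2 to -0.0357, Ndufa4 to -0.0536, Sdha to -0.0773 and Sdhc to -0.0413. The cause was not tested. The fits with other pseudocounts, filters, no trend, voom weights or protein-coding genes only reversed none of the named genes. Replicate numbers did not pair the pools (correlation of same-numbered deviations -0.00166), and with the replicate number as a block the median of the members stayed at 0.124 and 932 genes had an unadjusted p under 0.05, with 0 past the adjusted threshold.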
